A study of Mus musculus with 6 samples.

Results

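Kept regions of unchanged width are accessible regions of vehicle-treated cells that were still called, at nearly their original width, in both lists of cells treated with the inhibitor BRM014. Entries that overlapped within a list were first merged into regions. A DMSO region qualified when it overlapped exactly 1 region at 6 h and exactly 1 at 30 h, when neither partner overlapped another DMSO region, and when each partner was 0.9 to 1.1 times as wide as the DMSO region. Of 42310 DMSO regions, 21888 had such single partners at both times and are called singly matched here. Of these, 6819 met the width limits, which is 31.2% of the singly matched regions (95% Wilson interval 30.5 to 31.8%) and 16.1% of all DMSO regions (15.8 to 16.5%). The regions were thus chosen by their widths in all 3 lists. Widths, and all other values that set a treated list against DMSO, are therefore given as a description, with no test.

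The cells were NMuMG, an established epithelial line from normal mouse mammary gland, labelled wild type and grown in medium with serum and insulin. The 6 ATAC-seq libraries formed 3 groups of 2 biological replicates, treated with the vehicle DMSO, with BRM014 for 6 h, or with BRM014 for 30 h. DMSO was given for 30 h by the name of its list only, so vehicle cells matched in time to the 6 h group were not analysed here. The replicates of a group were joined in a single deposited peak list, so no value below has a replicate error. The protocol for making libraries also names TGFβ treatment, which no sample label carries.

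ATAC-seq marks open chromatin through a transposase that inserts adapters where DNA is not covered by nucleosomes. A called region is a stretch in which insertions exceed the local background, and a summit is a point within it where they peak. BRM014 inhibits the ATPases of the SWI/SNF (BAF) remodelling complexes, BRG1 and BRM, which slide and evict nucleosomes and are known to hold enhancers open. The width of a region therefore reads how far along the DNA the opening extends above background. The pileup at its summit reads how many fragments, as the peak caller counted them, lie over its most open point. Signal was averaged over many cells, so fewer cells with an open site and less opening per cell cannot be told apart.

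The merged DMSO, 6 h and 30 h lists held 42310, 25922 and 38422 regions with median widths of 677, 656 and 601 bp. As a measure of relative depth, the lowest local background in a list was solved from the fold enrichments and p-values, and that of DMSO was set to 100%. By this measure depth was 63.0% at 6 h and 80.7% at 30 h. Depth therefore differed between the groups in the same order as the number of regions, and its part in widths was not tested. Intervals are at 95%, take each region as an independent count, and hold no error between cultures. Regions are named by their position on the mouse build mm9, without genes, because annotation of that build was not used here.

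Singly matched regions were more often narrower than wider after treatment, and this also held within the unchanged ones. At 6 h 9476 regions were within the limits (43.3% of those singly matched), 10237 were below them (46.8%) and 2175 above (9.94%). At 30 h 11866 were within (54.2%), 7280 below (33.3%) and 2742 above (12.5%). Those within at both times are the 6819 described here. Both comparisons used the same DMSO widths. Another 5550 singly matched regions were below the limits at both times (25.4%) and 1022 above them at both times (4.67%). The median width of the unchanged regions was 837 bp in DMSO (quartiles 653 and 1030 bp), 820 bp at 6 h and 829 bp at 30 h. Within the limits the ratios still leaned below 1, with a median of 0.976 at 6 h (quartiles 0.943 and 1.01) and 0.991 at 30 h (0.960 and 1.02). At 6 h 68.3% of unchanged regions were narrower than in DMSO and 30.4% wider, and at 30 h 58.0% and 40.2%. The width was within 10 bp of that in DMSO in 1364 unchanged regions at 6 h and in 1711 at 30 h.

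**Figure D1:**
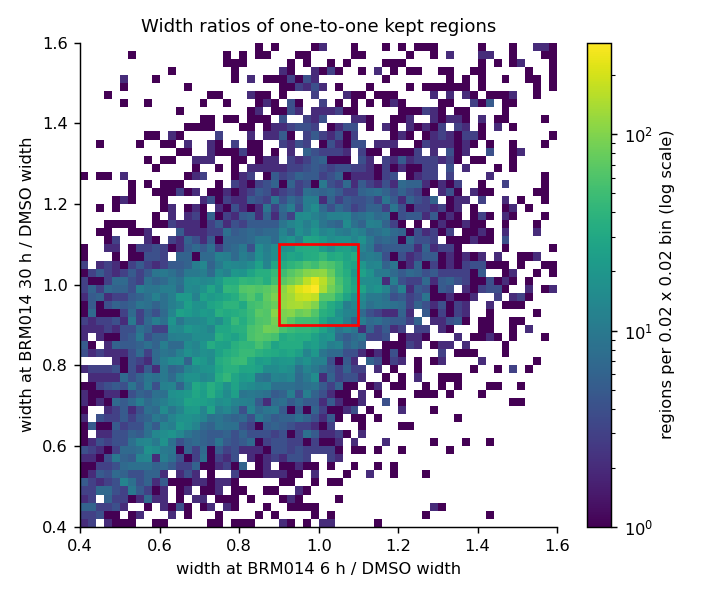
Width of each singly matched region at 6 h (x axis) and at 30 h (y axis) divided by its DMSO width, as the number of regions per bin of 0.02 by 0.02 on a log colour scale. The red square holds the 6819 regions with both ratios from 0.9 to 1.1, and a tail runs to lower ratios at both times. The 670 regions outside ratios of 0.4 to 1.6 are not drawn.

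The limits cut through a continuous distribution. The region chr10:60224776-60225265 was just inside, with a width of 490 bp in DMSO, 441 bp at 6 h and 475 bp at 30 h, a ratio of 0.9 at 6 h. The region chr9:44142338-44143446 was just outside, at 1109, 998 and 1161 bp, with a ratio of 0.8999 at that time. At the upper limit of the 6 h ratio, chr3:146113111-146113900 was inside at 790, 869 and 796 bp, and chr1:93116179-93116647 was outside at 469, 516 and 498 bp. At 30 h the lower limit separated chr6:99167672-99168231, at 560, 600 and 504 bp, from chr9:74800339-74801466, at 1128, 1082 and 1015 bp. Its upper limit separated chr16:78619517-78620006, at 490, 467 and 539 bp, from chr17:78719506-78720284, at 779, 790 and 857 bp. Regions on either side of a limit thus had nearly the same ratio. A ratio of exactly 0.9 occurred in 4 regions at 6 h and 2 at 30 h, all kept.

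Unchanged regions were stronger in DMSO by statistical confidence than the other singly matched regions, but not by fold enrichment. The -log10 q of a region is the authors' significance value adjusted for the number of tests, and fold enrichment is the summit signal over local background. The median DMSO -log10 q was 202 for unchanged regions (197 to 206) and 157 for the other 15069 (154 to 159). The median DMSO fold enrichment was 15.6 in both (15.4 to 15.8 and 15.5 to 15.7). Among all DMSO regions these medians were 91.7 and 13.0, so singly matched regions as a whole were the stronger part of the list. They had to be called again in both treated lists, which had lower depth, so the matching itself can favour strong regions. The share of unchanged regions was 21.2% in the weakest decile by DMSO -log10 q (19.5 to 22.9%), 30.5% in the fifth (28.6 to 32.4%) and 41.2% in the strongest (39.2 to 43.3%). By fold enrichment the same share stayed between 29.2% and 32.5% over all deciles, with 31.2% in the weakest and 30.8% in the strongest.

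In the second and middle quintiles of -log10 q, unchanged regions were more common where fold enrichment was low and background high. In the middle quintile of -log10 q the share was 37.6% in the lowest quintile of fold enrichment (34.0 to 41.3%), where the median background was 30.7 fragments. It was 22.9% in the highest (20.1 to 26.0%), where the background was 6.57. In the weakest quintile of -log10 q the share was 25.5% in the lowest quintile of fold enrichment (23.7 to 27.3%). It was 16.9% in the middle one (14.3 to 19.8%) and 18.2% in the fourth (12.7 to 25.3%). In the second quintile of -log10 q the shares at the lowest and highest fold enrichment were 31.1% (28.4 to 33.9%) and 18.1% (14.2 to 22.7%). In the fourth they were 39.8% (34.7 to 45.1%) and 27.1% (24.8 to 29.6%). In the strongest quintile they were 42.3% (32.9 to 52.2%) and 38.1% (36.0 to 40.3%), with overlapping intervals, and the second lowest quintile of fold enrichment had the highest share, 47.0% (42.1 to 51.9%). Summit pileup, the number of fragments at the strongest point, gave a steeper order than fold enrichment: the share went from 18.4% for pileups of 30 to 80 to 42.2% for those of at least 487 (40.2 to 44.3%).

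**Figure D2:**
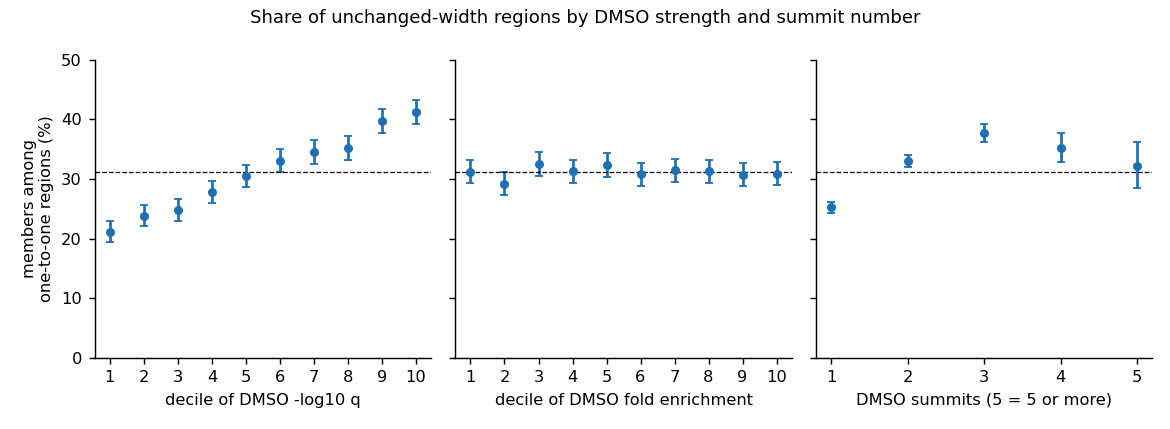
Share of singly matched regions (y axis, percent) whose width was unchanged, by decile of DMSO -log10 q, by decile of DMSO fold enrichment and by the number of DMSO summits, with 95% Wilson intervals. The dashed line is the share over all singly matched regions, 31.2%; the share climbs from 21.2% to 41.2% with -log10 q, stays near 31% with fold enrichment, and is highest at 3 summits, 37.8%.

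The weakest regions left the limits more often upwards than the strong ones did. In the weakest decile of -log10 q, 25.2% of singly matched regions were above the limits at 6 h and 32.2% at 30 h, against 4.25% and 4.84% in the strongest decile. The shares below the limits at 6 h were closer, 37.0% in the weakest, 50.6% in the fourth and 45.0% in the strongest decile. Regions that widened at both times were narrow and weak in DMSO, with a median width of 504.5 bp and a median -log10 q of 80.2. The DMSO width divides both ratios, so a region called too narrow in that single list tends to exceed the limits at both times. How much of the low width this makes up was not tested. Regions that narrowed at both times matched the unchanged ones in DMSO width, with a median of 832 bp (825 to 841) against 837 bp (828 to 844), and had a lower median -log10 q, 179 (174 to 183).

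Regions with several summits kept their width more often than those with 1. The share was 25.3% for 1 summit (24.3 to 26.2%), 33.0% for 2 (31.9 to 34.0%), 37.8% for 3 (36.3 to 39.3%), 35.3% for 4 (32.9 to 37.7%) and 32.2% for 5 or more (28.5 to 36.2%). When each decile of -log10 q was given the same weight, the shares for 1 and 3 summits were 26.3 ± 0.988% and 36.2 ± 1.51% (± the 95% half-interval). The relation to width depended on how strength was weighted. The share was 25.6% in the narrowest quartile of singly matched regions (186 to 611 bp) and 35.4% in the widest (1000 to 2386 bp), but 30.3 ± 1.66% and 33.2 ± 1.34% under the same weighting. This weighted difference of 2.85 points (0.716 to 4.98) turned to -0.998 points (-3.37 to 1.38) when only regions at the highest deposited score were used. It was 1.04 points (-1.19 to 3.26) with lists as long as the shortest, and 9.15 points (7.27 to 11.03) with deciles of fold enrichment in place of -log10 q. Spacing showed little: the share was 32.1% in the quartile closest to another DMSO region (30.9 to 33.4%) and 32.1% in the most isolated quartile (30.8 to 33.3%).

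A region can keep its width and still slide along the chromosome. The rule used the distance between both edges, so it bounds how far the edges can move apart but not how far they can move together. The start of an unchanged region moved by a median of 19 bp at 6 h (18 to 20) and 15 bp at 30 h (14 to 15), and the end by the same medians. Both edges lay within 50 bp of the DMSO edges in 4759 of 6819 regions at 6 h, 69.8% (68.7 to 70.9%), and in 5369 at 30 h, 78.7% (77.7 to 79.7%). Over all singly matched regions these shares were 32.2% and 42.7%. The rule fixes part of this gap, since a region whose edges both stay near those of DMSO also keeps its width. The DMSO and treated intervals shared a median of 94.3% of their joint length at 6 h and 95.5% at 30 h. At 6 h starts moved inward by a median of 6 bp and ends by 7 bp, and at 30 h by 1 and 2 bp.

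The exact edges were seldom the same in all lists. The start was identical in the 3 lists for 117 unchanged regions (1.72%), against 0.905% over all singly matched regions, and the end for 117 also, against 0.918%. In 5 regions, 0.0733% of the unchanged and 0.0228% of the singly matched, the whole interval was identical, and such regions are unchanged in width by definition. They ran from 190 to 841 bp in width. The first by fold enrichment was chr3:116550820-116551456, 637 bp wide, with fold enrichments of 20.5, 20.8 and 21.8 in the DMSO, 6 h and 30 h lists. It was followed by chr9:123016414-123016603, 190 bp wide, at 19.3, 29.6 and 25.3, whose single summit was at position 123016508 in every list. The others were chr18:65996913-65997105, at 17.6, 33.5 and 22.3, chr4:43038075-43038915, at 16.0, 15.2 and 17.2, and chr3:152376910-152377737, at 11.1, 11.2 and 12.8. In the last 2 the strongest summit still moved within the fixed interval, by 293 and 284 bp on chromosome 4 and by 249 and 272 bp on chromosome 3 at 6 h and 30 h. Identical edges thus did not fix the position of the strongest point.

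Sliding of the whole region was uncommon. Both edges moved over 50 bp to the same side in 399 unchanged regions at 6 h, 5.85% (5.32 to 6.43%), and in 209 at 30 h, 3.06% (2.68 to 3.50%), against 6.49% and 4.61% over all singly matched regions. In 278 of these at 6 h and 164 at 30 h the strongest summit stayed within 25 bp, so the borders had moved around a fixed point. The region chr6:100748982-100749801 was chosen, after its values were seen, for the largest shift of its centre to the same side at both times. It was 820, 875 and 816 bp wide in the 3 lists. Its start moved by 246 bp at 6 h and 267 bp at 30 h, and its end by 301 and 263 bp. Its strongest summit moved by 6 and 5 bp. On chromosome 2, chr2:121282644-121283459 moved the other way, by -195 and -176 bp at the start and -213 and -212 bp at the end, with its summit within 1 and 3 bp. Both times were measured against the same DMSO edges.

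The strongest summit kept its place in most unchanged regions, though no more often than elsewhere. It moved by a median of 12 bp at 6 h (11 to 12) and 9 bp at 30 h (9 to 9), against 12 and 10 bp in the other singly matched regions. It stayed within 25 bp in 5179 regions at 6 h, 75.9% (74.9 to 76.9%), and in 5666 at 30 h, 83.1% (82.2 to 84.0%), against 76.8% and 83.6% over all singly matched regions. Moves over 100 bp occurred in 536 unchanged regions at 6 h, 7.86% (7.25 to 8.52%), and in 448 at 30 h, 6.57% (6.01 to 7.18%). Over all singly matched regions 6.19% and 4.97% moved that far, and in the other 15069 regions 5.43% (5.08 to 5.80%) and 4.25% (3.94 to 4.58%). Long moves were therefore somewhat more frequent among regions of unchanged width than among the rest. This comparison was not adjusted for width or for the number of summits. The mean number of summits was 2.17 in unchanged and 1.98 in the other regions in DMSO, and 2.30 and 1.76 at 6 h.

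**Figure D3:**
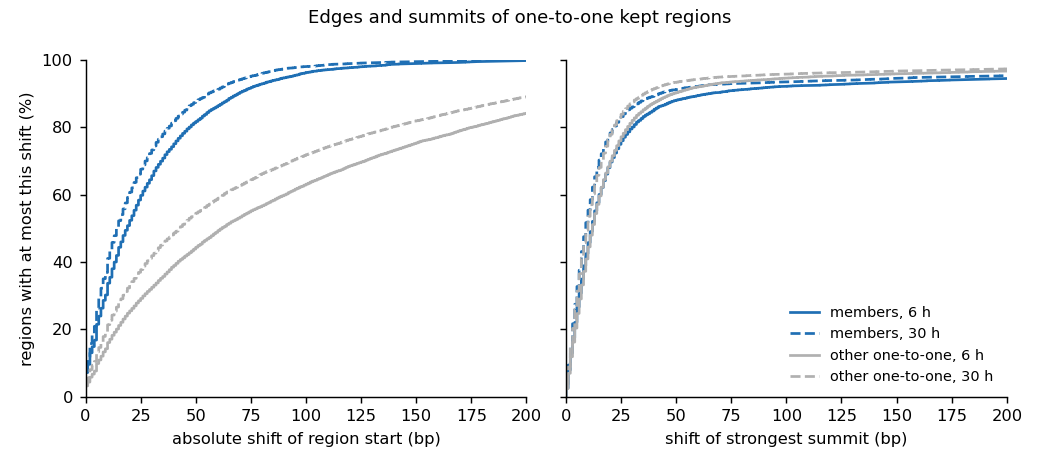
Cumulative share of regions (y axis, percent) against the absolute shift of the region start (left x axis, bp) and of the strongest summit (right x axis, bp), for unchanged regions (blue) and other singly matched regions (grey) at 6 h (solid) and 30 h (dashed), drawn up to 200 bp. Starts of unchanged regions moved by medians of 19 and 15 bp against 62 and 43 bp in the others, a gap that the width limits partly fix, whereas the summit curves nearly coincide, with medians of 12 and 9 bp against 12 and 10 bp.

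Long summit moves went with the number of summits, between which the strongest point can change. Among unchanged regions with 1 DMSO summit the strongest summit moved over 100 bp in 1.82% at 6 h and 1.48% at 30 h. With 3 summits the shares were 10.7% and 10.0%, and with 5 or more 20.1% and 15.2%. The 1349 regions with a single summit in all 3 lists, with a median DMSO width of 509 bp, moved by at most 183 bp at 6 h and 138 bp at 30 h. Over all unchanged regions, 29.8% had 1 DMSO summit, 37.5% had 2, 22.2% had 3, 7.82% had 4 and 2.70% had 5 or more.

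The largest summit moves at 30 h lay in wide regions with several summits. In chr3:51162056-51163584, 1529, 1519 and 1589 bp wide, the strongest summit was at 51162309 in DMSO, at 51163371 at 6 h and at 51163355 at 30 h, so the opposite end of the region led in both treated lists. In chr15:36722047-36724432, which at 2386 bp was also the widest unchanged region, it stood at 36722350, 36722374 and 36723383, and only the 30 h list had moved. In chr8:86724500-86725706 it stood at 86724630, 86724701 and 86725587. The last region had a fold enrichment of only 2.22, 3.24 and 2.60, with a pileup of 297 over a background of 133 in DMSO.

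The number of summits was also kept more often than elsewhere. It equalled the DMSO number in 4561 unchanged regions at 6 h, 66.9% (65.8 to 68.0%), and in 4962 at 30 h, 72.8% (71.7 to 73.8%), against 59.0% and 63.5% over all singly matched regions. The width limits can fix part of this gap. Unchanged regions with 1 DMSO summit had a median width of 579 bp, and those with 5 or more 1505 bp. At 6 h 44.0% of regions narrowed at both times lost summits, and 43.6% of those widened at both times gained them. Where the number differed, unchanged regions gained summits more often than they lost them. At 6 h 1510 gained (22.1%) and 748 lost (11.0%), whereas in the other singly matched regions 14.4% gained and 30.2% lost. At 30 h 1223 gained (17.9%) and 634 lost (9.30%), against 17.5% and 23.2%. The mean number per unchanged region was 2.17 in DMSO, 2.30 at 6 h and 2.27 at 30 h.

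In DMSO the strongest summit of an unchanged region stood a median of 22.9% of the half-width away from its centre (22.3 to 23.6%), and that of the other singly matched regions 20.6% (20.2 to 21.0%). The authors' score was at its highest value, 1000, in all 3 lists for 76.0% of unchanged regions and 54.6% of the others (53.8 to 55.4%). By rank within each list, the median unchanged region stood at the 76.3rd percentile of -log10 q in DMSO, the 69.4th at 6 h and the 78.6th at 30 h. The other singly matched regions stood at the 68.2nd, 49.7th and 65.8th. Lists of different length give ranks that cannot be compared between times.

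Unchanged width did not mean unchanged height. The pileup of each region in DMSO was scaled by relative depth to the pileup expected in a treated list. The unchanged regions had a median pileup of 259 in DMSO (254 to 264), 135 at 6 h (131 to 138) and 206 at 30 h (203 to 210). Over the expected value this was a median of 0.934 at 6 h (0.923 to 0.945, quartiles 0.701 and 1.14) and 1.04 at 30 h (quartiles 0.885 and 1.19). The level of these ratios rests on the measure of depth. With the median background of the singly matched regions as depth, 47.0% of DMSO at 6 h and 73.1% at 30 h, the medians were 1.251 and 1.15, so the 6 h median turned from below to above 1. This second measure is taken at the regions themselves, so a change of background that they share would count as depth.

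The comparison with other regions of the same lists does not rest on that choice, since it scales both alike. The other singly matched regions had medians of 0.808 at 6 h (0.799 to 0.817) and 0.9748 at 30 h (0.968 to 0.981), below the unchanged ones at both times. Regions narrowed at both times had medians of 0.642 (0.630 to 0.657) and 0.841 (0.828 to 0.855), and regions widened at both times 1.08 (1.04 to 1.11) and 1.23 (1.19 to 1.26). Width and height went in the same order over these classes. A called width is itself the stretch where signal exceeds background, and both ratios divide by values of the same DMSO list. Part of this order can therefore follow from how the classes were made.

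In a minority of unchanged regions the pileup was well below that expected. At 6 h the pileup was over 1.5 times below expected in 1499 of 6819, 21.98% (21.02 to 22.98%), and over 2 times below in 688, 10.1% (9.40 to 10.8%), against 32.4% and 18.7% over all singly matched regions. At 30 h 589 were over 1.5 times below, 8.64% (7.99 to 9.33%), and 214 over 2 times below, 3.14% (2.75 to 3.58%), against 17.2% and 8.10%. With the median background as depth the shares over 1.5 times below were 9.93% at 6 h and 5.95% at 30 h, against 18.5% and 13.4% over all singly matched regions. Weighting the deciles of DMSO -log10 q equally, 20.7 ± 0.934% of unchanged and 38.4 ± 0.744% of other singly matched regions were over 1.5 times below at 6 h, and 7.99 ± 0.624% and 22.04 ± 0.653% at 30 h. In the weakest decile these shares hardly differed, at 1.94% and 2.20% at 6 h and 1.51% in both groups at 30 h. In the strongest they were 24.3% and 45.5% at 6 h, and 11.2% and 30.9% at 30 h. Only regions still called in both treated lists could be counted. Pileups over 1.5 times above expected occurred in 278 at 6 h (4.08%) and 435 at 30 h (6.38%), against 4.42% and 7.97%.

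**Figure D4:**
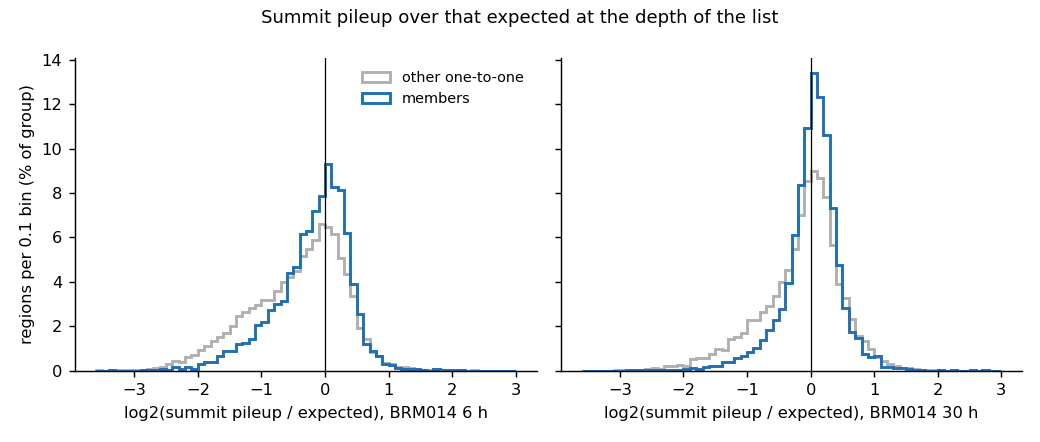
Distribution of the summit pileup over that expected from DMSO at the depth of the list (x axis, log2; 0 is the expected pileup) for unchanged regions (blue) and other singly matched regions (grey) at 6 h (left) and 30 h (right), as percent of each group per 0.1. The lower shoulder is smaller in the unchanged regions, of which 21.98% at 6 h and 8.64% at 30 h were over 1.5 times below expected, against 37.1% and 21.1% of the others.

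Seen from the pileup, a kept width was least frequent where the height was far below that expected. Among singly matched regions with a 30 h pileup between 0.8 times the expected and the inverse of that, 61.8% were within the width limits at 30 h (60.9 to 62.7%). Of those under 0.5 times, 29.0% were (26.9 to 31.1%), and of those over 1.5 times, 46.6% (44.3 to 48.9%). At 6 h these shares were 50.4% (49.4 to 51.5%), 26.7% and 44.9%, and the share in the next higher class, up to 1.5 times, was close to the first (47.8 to 52.2%). These classes rest on the lowest background as depth, and another measure of depth shifts their bounds. Width and pileup again come from the same lists, so they are not separate measurements. The median width ratio at 30 h went from 0.83 under 0.5 times to 1.03 over 1.5 times, a small range beside that of the pileup.

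The 10 unchanged regions with the highest DMSO -log10 q show how far height could differ at a steady width. The strongest, chr5:60433931-60434389, had -log10 q values of 4559, 5650 and 5009 in the DMSO, 6 h and 30 h lists. The next, chr19:24240852-24241568, was 717, 698 and 673 bp wide with pileups of 1215, 608 and 934. That is 0.794 and 0.952 of the expected pileup. In chr15:52759615-52760414, 800, 781 and 729 bp wide, the pileup was 1155, 359 and 582, or 0.493 and 0.624 of the expected. In chr15:87484568-87485535, 968, 892 and 912 bp wide, it was 1282, 502 and 678, or 0.622 and 0.655. These last 2 regions were thus well under the expected pileup at both times.

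The widest gap between width and height in this set was in chr5:53587558-53588261. It was 704 bp wide in DMSO, 635 bp at 6 h and 685 bp at 30 h. Its pileup was 1188, 118 and 305, which is 0.158 of the expected at 6 h and 0.318 at 30 h. Its local background went the same way, from 55.5 to 6.57 and 16.6, so its fold enrichment changed less, from 21.0 to 15.7 and 17.4. No control library was among the 6 libraries, so this background can include fragments of the region itself. Its fall is therefore not a measurement of the surroundings separate from the pileup. The region had 1 summit in DMSO and 2 in each treated list, and its strongest summit moved by 126 and 91 bp.

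The remaining regions of the 10 ranged from below to above the expected pileup. In chr19:6363180-6364246, 1067, 1028 and 1051 bp wide, the pileup was 1340, 1304 and 990, or 1.54 and 0.915 of the expected. In chr15:72890912-72891871 it was 1017, 729 and 832, or 1.14 and 1.01, and in chr19:10571883-10572814 it was 1172, 812 and 1008, or 1.0999 and 1.07. In chr1:140244741-140245629 it was 1155, 495 and 842, or 0.680 and 0.903. The region chr1:175696890-175697913 had 1113, 424 and 655, or 0.605 and 0.729. Over the 10 regions the ratio thus ran from 0.158 to 1.98 at 6 h and from 0.318 to 1.37 at 30 h, while widths stayed within the limits by the rule.

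**Figure D5:**
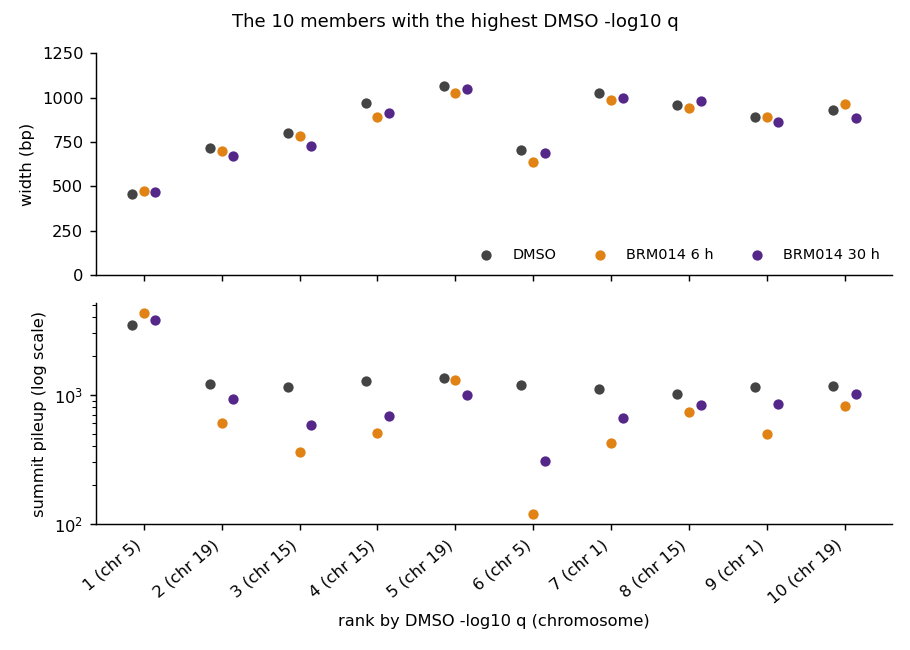
Width (upper axis, bp, from 0) and summit pileup (lower axis, log scale, unscaled for depth) of the 10 unchanged regions with the highest DMSO -log10 q, in the DMSO (grey), 6 h (orange) and 30 h (purple) lists, which are single pooled values. Widths lie close together in every region, whereas pileups spread, most in rank 6 on chromosome 5 with 1188, 118 and 305 fragments.

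Regions at the extremes of pileup were looked up after the values were seen, among unchanged regions with a DMSO pileup of at least 100. They were ordered by the larger of their ratios at 6 h and 30 h, so that both had to be low. The first in this order was chr9:114456670-114457287, 618, 560 and 639 bp wide, with pileups of 576, 62 and 75, or 0.171 and 0.161 of the expected. It was followed by chr11:100082781-100083672, 892, 859 and 849 bp wide, with 282, 32 and 41, or 0.180 at each time. The third was chr13:97732747-97733386, 640, 603 and 582 bp wide, with 557, 67 and 61, or 0.191 and 0.136. The ratio of 0.158 at 6 h in chr5:53587558-53588261 was lower than any of these at that time, but its ratio at 30 h was higher. In each of these the background was also lower after treatment, at 4.28 and 4.73 against 25.1 in the first. That background can include fragments of the regions themselves. Opposite to them, with both ratios high, chr15:22662763-22663230 was 468, 501 and 462 bp wide with pileups of 108, 168 and 302, or 2.47 and 3.46 of the expected. In chr13:22010677-22011532, 856, 873 and 863 bp wide, the pileup was 122, 252 and 238, or 3.28 and 2.42. Large moves of height in both directions thus occurred at a width that stayed within the limits.

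Of the 10 unchanged regions with the highest fold enrichment, those of rank 1, 2, 3 and 5 were 252 to 459 bp wide. The first, chr5:60433931-60434389, was 459, 473 and 467 bp wide with a fold enrichment of 54.6 in DMSO, 54.0 at 6 h and 54.1 at 30 h. Its pileup was the largest of all and was higher in both treated lists, at 3462, 4309 and 3816, although their depth was lower. The nearest DMSO region lay 1920272 bp away, and its summit moved by 1 and 0 bp. The region chr13:105532995-105533246 was 252, 244 and 243 bp wide, with fold enrichments of 45.4, 41.4 and 42.4. In chr1:104524713-104524988, 276, 268 and 266 bp wide, they were 45.4, 39.2 and 35.0, and its nearest DMSO region lay 2222121 bp away. In chr9:110183675-110183942, 268, 273 and 252 bp wide, they were 43.5, 45.0 and 29.8. Of all unchanged regions 3 were under 300 bp wide with a fold enrichment over 30, and 1 of the other singly matched regions was, counts taken after the values were seen.

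The rest of these 10, the fourth among them, were 527 to 917 bp wide in DMSO. The fourth, chr17:17200580-17201308, 729, 726 and 709 bp wide, had fold enrichments of 43.7, 43.5 and 43.9 and pileups of 554, 389 and 557. In chr3:28633591-28634117 the values were 35.4, 32.0 and 34.9, with pileups of 668, 230 and 771. That is 0.547 of the expected pileup at 6 h and 1.43 at 30 h, the widest ratio between times among these 10, just ahead of chr9:110183675-110183942 with 1.91 and 0.739. The regions chr7:111501629-111502403, chr12:92622427-92623343, chr16:87348356-87349001 and chr3:138699958-138700486 had DMSO fold enrichments from 33.8 to 35.0. Their ratios to the expected pileup ran from 0.664 to 0.963 at 6 h and from 0.682 to 1.08 at 30 h. The strongest summit moved by at most 7 bp at either time in all 10.

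The 3 widest unchanged regions had a low fold enrichment in every list. The widest, chr15:36722047-36724432, was 2386, 2297 and 2357 bp wide, with fold enrichments of 6.97, 8.83 and 8.11 and 5, 5 and 4 summits. The next, chr19:5793144-5795461, was 2318, 2291 and 2385 bp wide, at 4.76, 4.83 and 4.96 with 5, 6 and 6 summits. The third, chr15:89040466-89042735, was 2270, 2244 and 2074 bp wide, at 6.30, 5.92 and 6.84 with 8, 6 and 7 summits. The 3 narrowest each had 1 summit in every list. They were chr19:21179617-21179802, at 186, 190 and 173 bp, chr9:123016414-123016603, at 190 bp in each list, and chr12:55797429-55797619, at 191, 205 and 203 bp. The first of them had a fold enrichment of only 3.05, 3.57 and 2.92, on a background of 102 in DMSO.

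Unchanged regions were spread over the genome much as the singly matched regions were. Their share of singly matched regions ran from 27.4% on the X chromosome (23.8 to 31.4%) and 29.4% on chromosome 6 (26.8 to 32.1%) to 33.2% on chromosomes 5 (30.8 to 35.8%), 9 (30.6 to 35.9%) and 19 (30.2 to 36.3%). Under the same weighting of strength deciles the X chromosome was at 28.7 ± 4.12% and chromosome 5 at 33.1 ± 2.47%, so the intervals of these overlapped. Of the 2146 windows of 1 Mb with a singly matched region, 1762 held at least 1 unchanged region.

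The windows with the most unchanged regions were dense in accessible regions of every kind. Chromosome 19 from 5000001 to 6000000 held 30 among 71 singly matched and 97 DMSO regions, 42.3% (31.5 to 53.8%). Chromosome 17 from 56000001 to 57000000 held 22 of 45 (48.9%). The window on chromosome 10 from 79000001 to 80000000 held 21 of 50. The window at 10000001 to 11000000 on chromosome 19 came next, with 20 of 50. That at 120000001 to 121000000 on chromosome 11 had 18 of 51. Among the 906 windows with at least 10 singly matched regions the median share was 30.8%, with a standard deviation of 12.1 points between windows.

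Neighbours of unchanged regions were unchanged about as often as other regions. After an unchanged region the next singly matched region was also unchanged in 31.6% of cases (30.6 to 32.8%), and after another singly matched region in 30.9% (30.2 to 31.7%). The longest run held 11 consecutive unchanged regions, on chromosome 5 from 109895691 to 110537541, among 12 DMSO regions in 642 kb. Their widths ran from 708 to 2102 bp in DMSO, and their pileups from 0.928 to 1.27 of the expected at 6 h and from 1.03 to 1.32 at 30 h, so all were close to or above the expected pileup. The next runs held 9 regions on chromosome 9 from 88222143 to 88494900, among 11 DMSO regions, and 8 on chromosome 4 from 88596044 to 88707891, among 15. In them the ratio at 6 h went as low as 0.615 and 0.473.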

How the data were processed

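ATAC-seq peaks were called with MACS2 2.1.2 on mm9, per the submitters' processing notes, with each list deposited from both replicates of a group, per the labels. The sources used here do not name the aligner, read filters or caller options. The word fragments therefore stands for the units that the caller counted, which can be reads or whole fragments. The authors deposited a score, a ratio (fold enrichment over local background), -log10 p and -log10 q, and the summit offset of each entry.

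Overlapping entries were merged, keeping the highest value of each measure, and an overlap of 1 bp counted. The strongest summit was that with the highest -log10 p. Pileup, as a whole number, and background were solved from fold enrichment and -log10 p under MACS2 defaults, within 0.001 for 100% of entries, and the lowest background of a list was taken as relative depth. Shares have 95% Wilson intervals, medians 95% binomial intervals and weighted shares 95% intervals from binomial variances. No test between treatments was made. The steps recovered the regions and pileups made in simulated lists. Those lists were made with the same formulas, so this checks the code and not whether the MACS2 defaults held. Python 3.11.15, pandas 2.3.3 and scipy 1.17.1 were used.

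Members, lists and comparisons were chosen with earlier results of these data known. Regions named were the 10 highest by DMSO fold enrichment and by -log10 q, the 3 widest and narrowest, those with identical intervals, the 3 largest summit moves at 30 h, those nearest each limit, the 5 fullest windows of 1 Mb and the 3 longest runs. Planned steps on sequence, motifs, promoters and gene lists were left out, as they need a genome of the mm9 build. The alternatives covered the limits, overlap, filters, list length, merging, ranking and depth.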

Additional observations from a re-analysis of the deposited data

How the results depend on the processing

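Without replicates, only the processing could be varied. No paired analysis was possible because the replicates of a group share a single list, which also kept single replicates from being left out. All alternatives were planned. The number and share of unchanged regions followed the limits: 13026 (59.5% of singly matched regions) at ratios from 0.8 to its inverse, 3141 (14.4%) at ratios within 5% of 1, 43.3% with the 6 h limits alone, and 11866 (54.2%) with the 30 h limits alone, by construction. With an overlap of at least 50% of both regions the share was 32.0%. With a score of 1000 the share was 38.0%, the width difference -0.998 points, the difference between 3 summits and 1 summit 7.997 points and that between strength deciles 12.9 points. In that setting summits moved over 100 bp in 6.87% at 6 h and 5.82% at 30 h, the median pileup over expected at 6 h was 0.969, and 16.9% and 6.36% were over 1.5 times below expected at 6 h and 30 h. With lists as long as the shortest, 6.20% and 4.77% of summits moved over 100 bp. With deciles of fold enrichment the width difference was 9.15 points, the summit difference 12.7 points and that between strength deciles -0.320 points. With the median background as depth the median pileup over expected was 1.251 at 6 h and 1.15 at 30 h, and 9.93% and 5.95% were over 1.5 times below. The cause was not tested for the score, list length, ranking and depth settings. A minimum -log10 q of 5 and merging within 100 bp moved none of the 13 values checked beyond its interval.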

Other observations

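The surroundings of unchanged regions were also counted, which no comparison above used. Of 4922 DMSO regions adjacent to an unchanged region and within 10 kb of it, 42.8% (41.5 to 44.2%) overlapped no region of the 6 h list and 23.79% (22.62 to 25.001%) none of the 30 h list. Next to the other singly matched regions the shares were 43.2% (42.2 to 44.1%) and 23.8% (23.0 to 24.6%), within each other's intervals. A region called only after treatment lay within 10 kb of 3.93% of unchanged regions at 6 h (3.49 to 4.42%) and 12.5% at 30 h (11.7 to 13.3%), against 4.02% (3.72 to 4.35%) and 12.5% (12.0 to 13.1%) of the others. The local background at the strongest summit had a median of 15.9 in DMSO, 8.25 at 6 h and 12.6 at 30 h in unchanged regions. Over that expected from depth this was 0.888 at 6 h (0.879 to 0.895) and 1.01 at 30 h (1.01 to 1.02), and in the other singly matched regions 0.819 (0.813 to 0.826) and 0.967 (0.962 to 0.973). The background can include fragments of the regions themselves.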
